A study of Mus musculus with 30 samples.

Results

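The angiopoietin and Tie receptor axis was followed across the stroma of the newborn mouse thymus through 5 genes, taken from the expression table by symbol. They were the ligands Angpt1 and Angpt2, the receptors Tek (the gene of Tie2) and Tie1, and Ptprb, the gene of the vascular endothelial phosphatase VE-PTP. All 5 were found among the 18847 genes of the table, and all 5 passed the filter on low values (at least 1 FPKM in at least 2 libraries), which 16425 genes passed.

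Angpt1 is a secreted ligand that activates Tie2, and in many tissues it comes from mural and other mesenchymal cells, while the receptor lies on the neighbouring endothelium. Angpt2 is stored and released by endothelial cells and acts on Tie2 as a weak or context-dependent agonist that can oppose Angpt1. Tie1 binds neither ligand with high affinity and forms complexes with Tie2, and VE-PTP removes phosphate from Tie2 and so lowers its signal. Active Tie2 signals through AKT, which keeps the transcription factor FOXO1 out of the nucleus, and FOXO1 in turn drives Angpt2 in endothelial cells.

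Both treatments were given to newborn B6.SJL mice of mixed sex on postnatal day 1, and thymi were collected on postnatal day 3. The Trap group received aflibercept, a soluble decoy built from parts of VEGF receptors 1 and 2 that binds VEGF-A, and the control group received human Fc protein. After magnetic removal of CD45+ cells, sorting gave CD31+ endothelium, CD146+ and CD140a+ mesenchyme (both lacking EpCAM and CD31), cortical thymic epithelium (cTEC, EpCAM+ Ly51+) and medullary thymic epithelium (mTEC, EpCAM+ with little or no Ly51), each as 4 Trap and 2 control libraries, 30 in all. Neither the number of animals behind a library nor any sharing of animals between populations is stated, so the p-values rest on library-to-library spread alone, and some of that may be technical. The values were FPKM (fragments scaled to the length of the gene and to the size of the library) without read counts, so the depth behind a value is unknown and no counting interval or detection floor can be given.

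Marker genes were read against the sorting labels. The summed level of 10 endothelial markers (Pecam1, Cdh5, Kdr, Flt1, Emcn, Cldn5, Esam, Egfl7, Erg, Sox17) was 1433 to 1560 FPKM in Trap and 1611 to 1626 FPKM in control endothelium, and at most 39.4 FPKM in any library of the other populations. The sum of 10 mural markers was 5117 to 6638 FPKM in Trap and 5104 to 6229 FPKM in control CD146 mesenchyme, and that of 8 fibroblast markers was 3387 to 4172 FPKM in Trap and 3256 to 4657 FPKM in control CD140a mesenchyme. The sum of 6 cTEC markers was 898 to 1084 FPKM in Trap and 829 to 1226 FPKM in control cTEC, and that of 6 mTEC markers was 1188 to 1382 FPKM in Trap and 1126 to 1527 FPKM in control mTEC. In cTEC the same mTEC markers summed to 381.5 to 421.5 FPKM with Trap and 387.5 to 414.7 FPKM in control, of which Epcam was 274.42 to 322.5 FPKM. In mTEC the cTEC markers summed to 87.8 to 112 FPKM with Trap and 104.5 to 110.9 FPKM in control. The cTEC libraries also held 7 thymocyte markers at 85.1 to 133 FPKM with Trap and 49.6 to 78.4 FPKM in control, against at most 13.9 FPKM in any other population. One Trap endothelium library (replicate 2) also held cTEC markers, with a sum of 53.3 FPKM. The mTEC libraries held myeloid markers at 233 to 382 FPKM with Trap and 329 to 334 FPKM in control, largely Lyz2, and the mural marker Rgs5 at 425 to 689 FPKM over the 6 libraries. In sorted bulk samples, fewer cells of a type and less RNA per cell cannot be told apart.

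In GRCm38 (GENCODE M21 annotation), Angpt1 lies on the minus strand at chr15:42424723-42676977 and Angpt2 on the minus strand at chr8:18690263-18741562. Tek (chr4:94739289-94874976, plus strand) and Tie1 (chr4:118471191-118490061, minus strand) share a chromosome, and Ptprb lies on the plus strand at chr10:116275523-116389535. The exons of Angpt1 share 737 bases with an antisense gene, Gm17473. Whether counting used strand is not given in the sources used here, so reads of that stretch cannot be assigned to one of the pair. Angpt2 lies within an overlap with Mcph1 on the opposite strand, with 0 exon bases in common.

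Promoter sequence was at hand for the 2 receptors (2 of 5 genes matched), whose levels in CD140a mesenchyme lay far apart. Each line gives the 250 bases before the annotated start from RefSeq (GRCm38.p6), for Tek at chr4:94739039-94739288 on the plus strand and for Tie1 at chr4:118489850-118490099 on the minus strand. Capitals mark GGAAG on either strand (CTTCC on the other), a longer form of the ETS core GGAA, since ETS factors are known regulators of endothelial genes.

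Tek: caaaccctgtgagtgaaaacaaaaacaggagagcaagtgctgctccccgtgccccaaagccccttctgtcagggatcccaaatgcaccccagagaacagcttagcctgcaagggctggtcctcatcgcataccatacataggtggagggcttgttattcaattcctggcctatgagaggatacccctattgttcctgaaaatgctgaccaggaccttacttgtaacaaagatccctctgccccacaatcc

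Tie1: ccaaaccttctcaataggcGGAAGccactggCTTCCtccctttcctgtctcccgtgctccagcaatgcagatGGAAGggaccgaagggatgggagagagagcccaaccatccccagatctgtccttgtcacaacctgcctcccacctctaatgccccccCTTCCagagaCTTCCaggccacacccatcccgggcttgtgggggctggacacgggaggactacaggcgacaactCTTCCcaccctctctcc

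The Tie1 window held 6 matches of GGAAG, none overlapping another, which begin 231, 219, 178, 91, 81 and 17 bases before the RefSeq start. The GENCODE start of Tie1 lies farther upstream, within the window, so that 212 of the 250 bases and 4 of the 6 matches are inside the GENCODE gene. The Tek window held 0 matches of GGAAG but held the shorter GGAA, written TTCC on the other strand, which was not counted. Among 32851 promoter windows of the same length, 64.07% held at least 1 match of GGAAG, 10.69% at least 3 and 0.344% at least 6. Neither window held the forkhead core TAAACA, the GATA core AGATAA or the hypoxia response element core ACGTG, which stood on either strand in 12.03%, 9.988% and 16.57% of windows. These are matches of letters and were not measured as binding.

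The 3 genes of receptor signalling were all highest in endothelium, but Tek had another site of expression. In endothelium Ptprb averaged 248 ± 24.4 FPKM, Tek 92.4 ± 9.74 FPKM and Tie1 66.0 ± 9.03 FPKM (SD, n = 6 libraries over both treatments). Ptprb there ranked 57 of 18847 genes by level, Tek 276 and Tie1 481. On the log2(FPKM + 1) scale, which understates differences of low genes, Tie1 was 5.89 ± 0.14 higher in endothelium than in mTEC (SE), the population next in order. It was at most 0.43 FPKM in every library outside endothelium and passed the filter only through endothelium, so its difference is a description. Ptprb was 6.85 ± 0.16 higher in endothelium than in mTEC (adjusted p = 3.08e-22). The test of Ptprb, and those below unless stated, come from 1 limma fit over all libraries, with p-values adjusted by Benjamini-Hochberg over 16425 genes and a threshold of 0.05.

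Tek in CD140a mesenchyme was measured at 26.1, 22.1, 25.5 and 24.0 FPKM with Trap and at 32.8 and 23.5 FPKM in control. The 6 libraries averaged 25.7 ± 3.78 FPKM (SD), 27.8% of the endothelial mean, and Tek ranked 1576 of 18847 genes there. The level was 1.77 ± 0.15 higher in endothelium than in CD140a mesenchyme on the log2 scale (SE, adjusted p = 1.99e-10), and 2.78 ± 0.15 higher in CD140a mesenchyme than in mTEC (adjusted p = 1.15e-14). CD146 mesenchyme, the population of mural marker genes, was at 1.66 ± 0.694 FPKM (SD, n = 6), a log2 difference of -3.28 ± 0.15 against CD140a mesenchyme (adjusted p = 2.08e-15).

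Tie1, Ptprb and the 10 endothelial markers were low in CD140a mesenchyme. Tie1 was between 0.01 and 0.07 FPKM in the 6 libraries, and Ptprb between 0.12 and 0.64 FPKM, which is 0.0758% and 0.112% of their endothelial means. The 10 endothelial markers reached 0.0403% to 2.45% of their endothelial levels, with a median of 0.48%, and their sum was 6.54 to 8.62 FPKM with Trap and 4.71 to 6.79 FPKM in control. None of the 10 was at 0 in every library. The log2 ratio of Tie1 to Tek averaged -9.25 ± 1.09 in CD140a mesenchyme and -0.49 ± 0.17 in endothelium (SD, n = 6 each). That of Ptprb to Tek was -6.79 ± 0.87 in CD140a mesenchyme and 1.43 ± 0.14 in endothelium, and the values of the populations did not overlap for either ratio. Both ratios, and that of Angpt2 to Angpt1 given below, were set side by side after the values were seen and are descriptions with no test. Values are rounded to 2 decimals, so a ratio that rests on 0.01 FPKM is coarse.

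**Figure D1:**
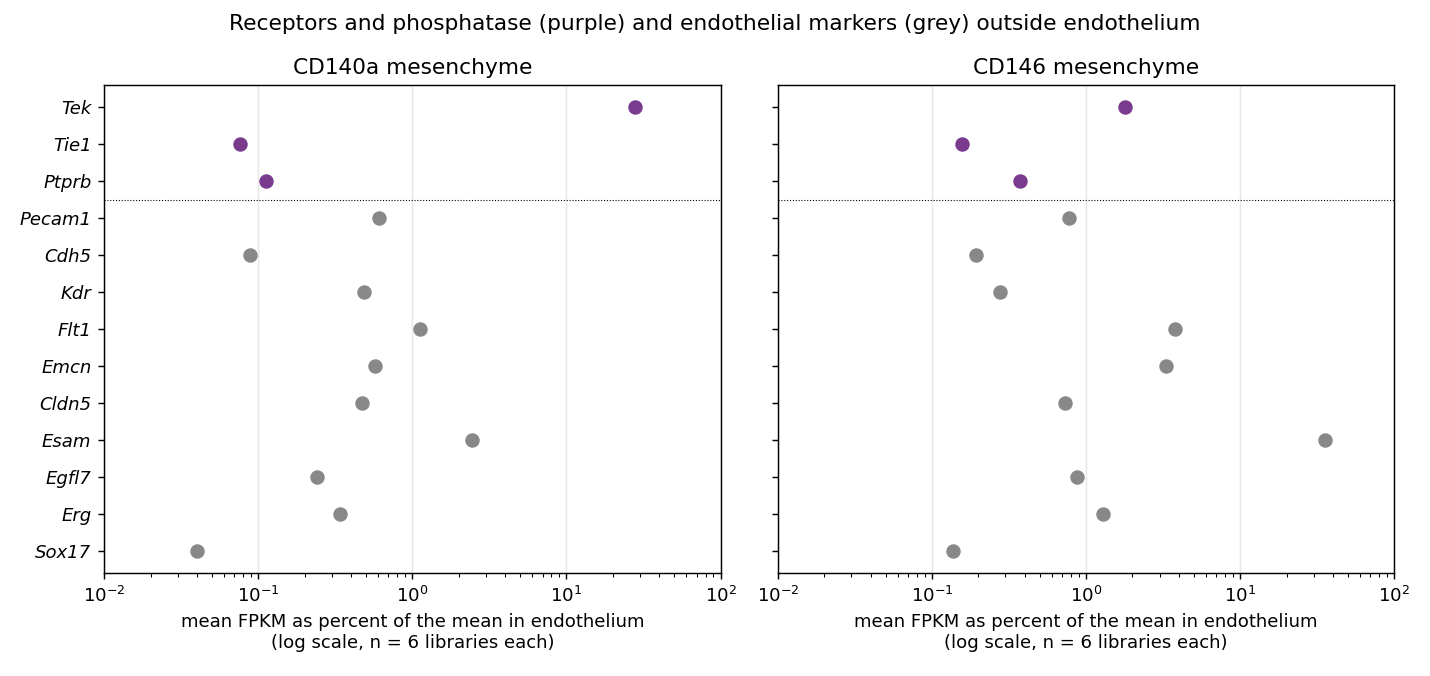
Mean level in CD140a mesenchyme (left) and CD146 mesenchyme (right) as a percentage of the mean in endothelium, on a log axis, for Tek, Tie1 and Ptprb (purple) and 10 endothelial markers (grey), each from 6 libraries per population. In CD140a mesenchyme Tek stands at 27.8% while every grey point lies at or below 2.45%, and in CD146 mesenchyme Tek stands at 1.80% and Esam at 35.7%.

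The genes named next were picked for a profile like that of Tek over the same 30 libraries, so a shared pair of sites follows from the choice. By Pearson's r of log2(FPKM + 1) over the 30 libraries they were Ramp2 (0.972), a receptor partner for adrenomedullin, Ly6c1 (0.972), Ackr1 (0.965), an atypical chemokine receptor, Ace (0.965), the angiotensin-converting enzyme, and Fbln2 (0.951), a matrix protein. Ramp2 averaged 43.9 ± 8.14 FPKM in endothelium and 18.9 ± 4.50 FPKM in CD140a mesenchyme, and Ackr1 86.4 ± 30.9 and 19.0 ± 5.46 FPKM (SD, n = 6 each). In CD146 mesenchyme the same genes were low, with Ramp2 at 0.905 FPKM and Ackr1 at 1.08 FPKM on average. The list for Tie1 was Adgrl4 (0.997), Sox18, Robo4, Cdh5 and Aplnr (0.994), and that for Ptprb was Cdh5 (0.994), Tie1 (0.994), Egfl7, Robo4 and Sox18 (0.992). Each of these averaged at most 1.16 FPKM in every population but endothelium. The libraries share populations and normalization, so these r values describe profiles and carry no p. The lists depend on how likeness is taken. With r over the 10 group means, 4 of the 5 most alike genes stayed among the top 5 for Tek, 3 for Tie1 and 1 for Ptprb. For Angpt1 and Angpt2, whose lists are given below, 2 of 5 stayed for each.

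Outside those 2 populations Tek was low but not uniform. In mTEC it was 3.41, 3.83, 2.66 and 4.62 FPKM with Trap and 1.84 and 3.08 FPKM in control. In cTEC it stayed at or below 0.84 FPKM in all 6 libraries. The step down between CD146 mesenchyme and cTEC was 0.90 ± 0.15 (SE, adjusted p = 2.05e-05). The step between mTEC and CD146 mesenchyme, 0.50 ± 0.15 (adjusted p = 0.00641), was lost under quantile normalization and rescaling to TPM, without mTEC control replicate 2 (adjusted p = 0.0703), and in control libraries alone. The sum of myeloid markers given above was at most 48.8 FPKM outside mTEC, and in mTEC it was largely Lyz2 (median 299 FPKM). Mrc1 was also highest in mTEC (median 12.05 FPKM), but Cd68 and Csf1r were not. Cd68 had a median of 12.18 FPKM in mTEC and 30.27 FPKM in endothelium, and Csf1r 2.42 FPKM in mTEC and 2.445 FPKM in CD146 mesenchyme. The part of these markers in the Tek level of mTEC was not tested. Tie1 was at or below 0.43 FPKM in every library outside endothelium, and no 2 neighbours in its order there differed. Ptprb averaged 1.16 FPKM in mTEC, 0.927 FPKM in CD146 mesenchyme, 0.283 FPKM in cTEC and 0.278 FPKM in CD140a mesenchyme, and neither the first pair (adjusted p = 0.11) nor the last (adjusted p = 0.919) differed by the test.

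The 2 ligands were highest in different populations. Angpt1 was highest in CD146 mesenchyme, at 12.1, 8.86, 12.2 and 12.1 FPKM with Trap and 9.03 and 12.6 FPKM in control, and lowest in endothelium. The second site was cTEC, at 5.77, 6.07, 5.39 and 6.08 FPKM with Trap and 3.96 and 5.59 FPKM in control. The 6 libraries of each population did not overlap with those of the other. CD146 mesenchyme exceeded cTEC by 0.94 ± 0.18 (SE, adjusted p = 9.15e-05), and cTEC exceeded mTEC by 1.28 ± 0.18 (adjusted p = 1.25e-06). Levels in mTEC (1.56 ± 0.730 FPKM) and CD140a mesenchyme (1.47 ± 0.568 FPKM, SD, n = 6 each) did not differ by the test, with a 95% interval of -0.21 to 0.52 for mTEC minus CD140a mesenchyme. Endothelium was below CD140a mesenchyme by 0.91 ± 0.18 (adjusted p = 0.000126), a call that was not made in control libraries alone (adjusted p = 0.168).

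Angpt1 in cTEC was 49.2% of its level in CD146 mesenchyme. The 9 mural markers other than Mcam, which endothelium also carries, stood in cTEC at 0.098% to 8.53% of their CD146 levels, with a median of 0.796%. In mTEC Angpt1 stood at 13.96% and the same markers had a median of 2.92% and a highest share of 14.2%, that of Rgs5. In endothelium Angpt1 was at 1.74% and the markers had a median of 2.12%. The genes most like Angpt1 in profile were Dtna (r = 0.943), Gucy1a2 (0.931), a subunit of soluble guanylate cyclase, Afap1l2 (0.926), Mtcl1 (0.921) and Map3k20 (0.92). Gucy1a2, picked for this likeness, averaged 29.7 ± 2.56 FPKM in CD146 mesenchyme and 20.4 ± 1.23 FPKM in cTEC (SD, n = 6 each).

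Angpt2 was highest in endothelium (74.9 ± 13.6 FPKM), second in CD146 mesenchyme (18.4 ± 3.41 FPKM) and at most 8.45 FPKM in every library of the other 3 populations. It exceeded the CD146 level in endothelium by 1.93 ± 0.18 (SE, adjusted p = 1.19e-09), and CD146 mesenchyme exceeded mTEC by 1.66 ± 0.18 (adjusted p = 1.09e-08). In mTEC it averaged 5.36 ± 1.86 FPKM, in cTEC 3.21 ± 0.830 FPKM and in CD140a mesenchyme 2.91 ± 0.779 FPKM (SD, n = 6 each). The step between mTEC and cTEC (0.50 ± 0.18, adjusted p = 0.0276) did not hold under 10 of 22 alternatives, among them upper quartile scaling (adjusted p = 0.135), quantile normalization, rescaling to TPM, the leaving out of either cTEC control, of cTEC Trap replicate 3, of mTEC control replicate 2 or of mTEC Trap replicate 1 (adjusted p = 0.0549 to 0.143), and control libraries alone. CD140a mesenchyme and cTEC did not differ by the test (95% interval of the log2 difference, cTEC minus CD140a mesenchyme, -0.19 to 0.55). Among the genes closest to Angpt2 in profile were Cd93 (0.976), Cdh13 (0.961), Arhgef7 (0.961) and Dysf (0.96). Cd93 averaged 619 ± 32.7 FPKM in endothelium and 38.8 ± 10.3 FPKM in CD146 mesenchyme (SD, n = 6 each).

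CD146 mesenchyme held both ligands, and endothelium held Angpt2 with Angpt1 at most 0.45 FPKM. The log2 ratio of Angpt2 to Angpt1 was 0.71 ± 0.49 in CD146 mesenchyme (SD, n = 6) and 8.46 ± 1.07 in endothelium (n = 5, since 1 Trap library listed Angpt1 at 0). Across libraries Angpt1 ran against Tek (Pearson's r = -0.819 over 30 libraries) and Tie1 ran with Ptprb (0.994), as a description of profiles set by the 5 populations.

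**Figure D2:**
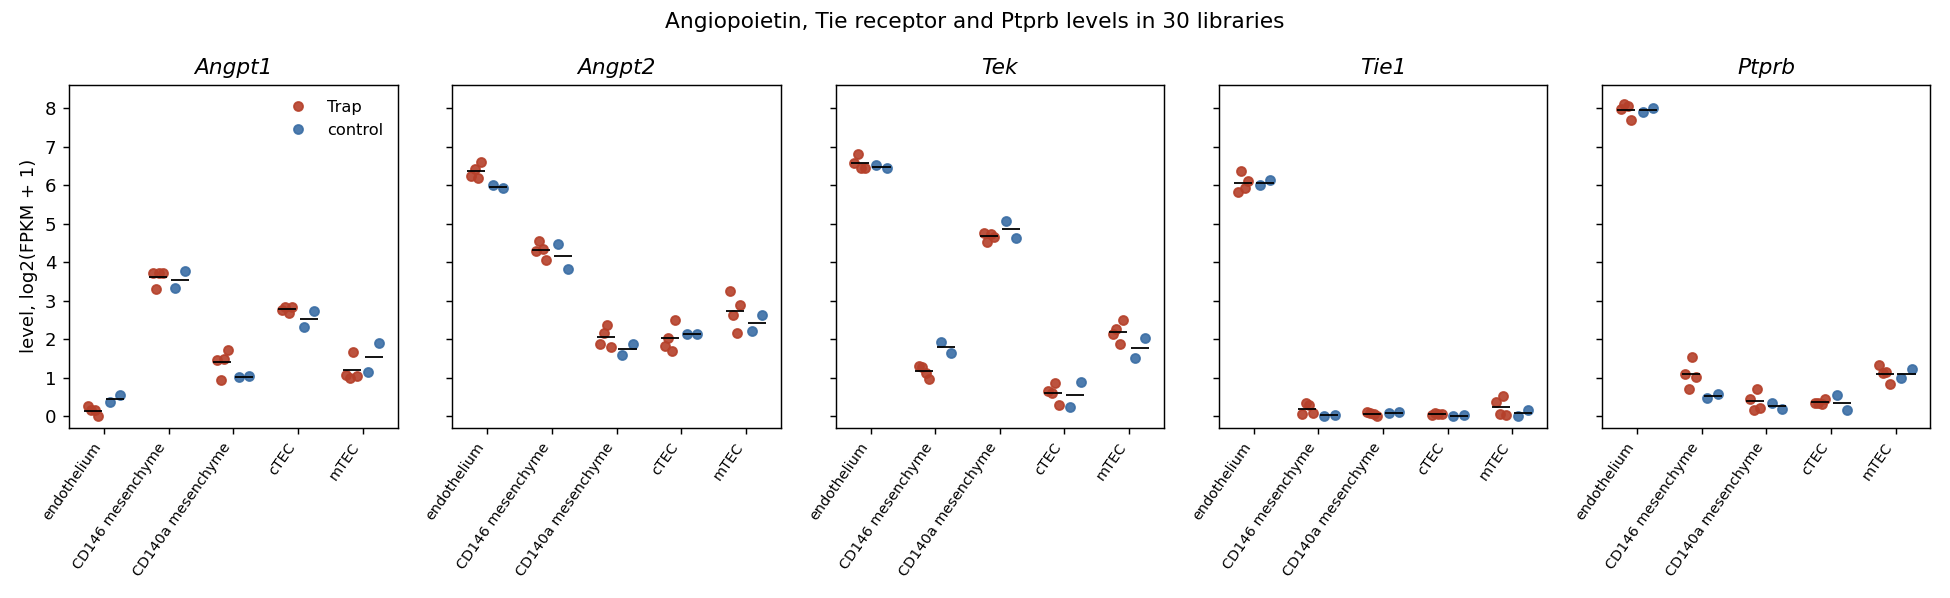
Level of each gene as log2(FPKM + 1) in the 30 libraries, by population, with Trap libraries (red, left) beside control libraries (blue, right) and a line at each group's mean. Tek is high in endothelium and CD140a mesenchyme, Tie1 and Ptprb in endothelium, Angpt1 in CD146 mesenchyme and cTEC, and Angpt2 in endothelium and CD146 mesenchyme.

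Counted over all pairs of populations, endothelium differed from each other population in 5 of 5 genes, with Tie1 counted though it passed the filter only through endothelium. The share of all tested genes that differed in either direction was 35.7% against CD146 mesenchyme, 41% against CD140a mesenchyme, 44.7% against cTEC and 57.8% against mTEC. CD146 mesenchyme differed from CD140a mesenchyme in 4 of 5 (31.2% of all genes), from cTEC in 4 (41.6%) and from mTEC in 3 (55.7%). CD140a mesenchyme differed from cTEC in 2 (43.9%) and from mTEC in 3 (57.2%), and cTEC from mTEC in 4 (41.2%). Between populations other than endothelium these counts lie on both sides of the share of all genes. In the pairs of populations with mTEC the median of all genes shifted by 0.13 to 0.19 under upper quartile scaling. It shifted by 0.28 to 0.36 under quantile normalization and by 0.06 to 0.18 after rescaling to TPM. These shifts bear on the small steps against mTEC given above. The share of calls that were higher also moved, for CD146 mesenchyme against mTEC to 54.1% under quantile normalization from 34.6%, and for cTEC against mTEC to 56.5% from 31.3%.

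Other ligands and partners of the receptors were read from a list of 21 genes. Svep1, an extracellular matrix protein known to bind Tie1, averaged 0.267 ± 0.242 FPKM in endothelium and 20.6 ± 7.51 FPKM in CD140a mesenchyme (SD, n = 6 each), where Tie1 was near 0. The log2 difference, endothelium minus CD140a mesenchyme, was -4.16 ± 0.22 (SE, adjusted p = 6.11e-15). Angpt4, the third angiopoietin, averaged 0.91 FPKM or less in each population, with 2.32 FPKM as its highest value. The 4 partners highest in endothelium were Cdh5 (600 ± 39.8 FPKM), the junction protein VE-cadherin that VE-PTP also binds, Itgb1 (184 ± 13.3 FPKM) and Itga5 (96.0 ± 25.4 FPKM), integrin subunits, and Foxo1 (80.8 ± 9.10 FPKM). Foxo1 was 1.66 ± 0.12 higher in endothelium than in cTEC, the population next in order (adjusted p = 3.28e-12). Of the angiopoietin-like family, which does not bind Tie receptors in the manner of the angiopoietins, Angptl4 was highest in endothelium (55.6 ± 13.4 FPKM) and Angptl2 (52.3 ± 10.2 FPKM) and Angptl1 (17.9 ± 4.63 FPKM) in CD140a mesenchyme.

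At 2 days after aflibercept, none of the 5 genes passed the test of Trap against control in any of the 5 populations. The 25 estimates of Trap minus control ran between -0.62 and 0.57 on the log2 scale, the lowest adjusted p was 0.515, and 2 of the 25 had an unadjusted p under 0.05. Over all genes the same fit called 53 higher and 233 lower in endothelium (1.74%), 1 and 2 in CD146 mesenchyme (0.0183%), 0 and 0 in CD140a mesenchyme (0%), 0 and 1 in cTEC (0.00609%), and 4 and 53 in mTEC (0.347%). Rescaling to TPM gave 80 higher and 181 lower in endothelium. At an unadjusted p under 0.05 the fit without rescaling counted 2452, 822, 609, 374 and 1231 genes in the same order of populations. The unadjusted 95% intervals of the 25 estimates reach 0.4 to 0.52 to either side, and a change had to be larger than that to pass the adjusted threshold. Fits on the 6 libraries of 1 population alone called 0 genes in each of the 5.

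**Figure D3:**
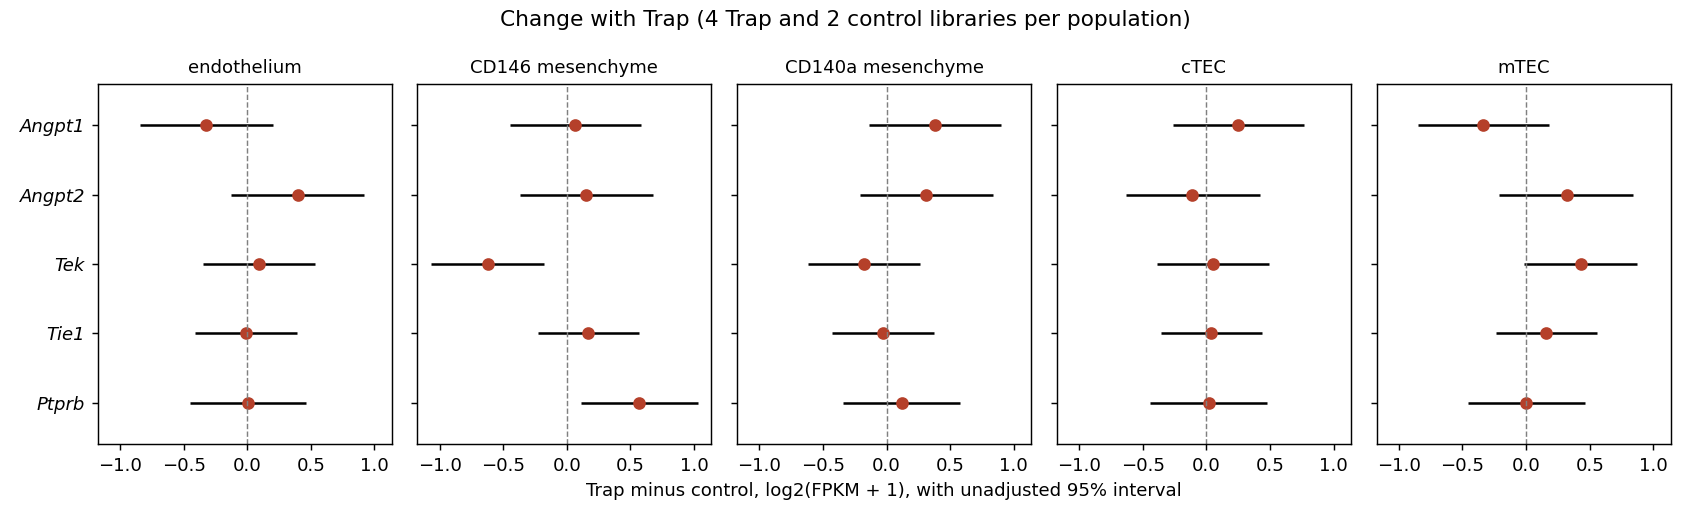
Trap minus control on the log2(FPKM + 1) scale for each gene (rows) in each population (panels), with the unadjusted 95% interval from the fit over all genes. The intervals of Tek (-0.62) and Ptprb (0.57) in CD146 mesenchyme do not cross 0, and neither gene passed the adjusted threshold.

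Angpt2 in endothelium was 74.7, 84.99, 71.1 and 95.9 FPKM with Trap and 63.1 and 59.7 FPKM in control. All 4 Trap libraries lay above both controls, and the ratio of means was 1.33. Groups lay apart in either direction for 14.8% of all tested genes in endothelium, and nothing is read from the separation of Angpt2. The fitted difference was 0.40 ± 0.25 (SE, 95% interval -0.13 to 0.92, adjusted p = 0.515), and over 15 alternatives it was 0.32 to 0.46 with an adjusted p of 0.425 to 0.929. The 5 markers of lymphatic endothelium, which is known to express Angpt2, summed to 53.7 to 294 FPKM with Trap and 48.0 to 152 FPKM in control. Of their estimates 4 of 5 were above 0 and 0 were called. Among these markers Ccl21a ran over 16.35 to 202.4 FPKM in endothelium. It is not particular to lymphatic cells here, with a median of 757.5 FPKM in mTEC and 480 FPKM in cTEC. The highest sum was that of Trap replicate 2, the library that also held cTEC markers. The part of these markers in the Angpt2 level was not tested.

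Angpt1 in endothelium was 0.19, 0.11, 0.11 and 0 FPKM with Trap and 0.30 and 0.45 FPKM in control. All 4 Trap libraries lay below both controls, at levels that are near the bottom of the table, since the gene passed the filter through other populations. The fitted difference was -0.32 ± 0.25 (adjusted p = 0.634), and over 15 alternatives it was -1.31 (with a pseudocount of 0.1) to -0.24, with an adjusted p of 0.122 to 0.974. The sums of a pair of marker lists of other cells were also lower with Trap, though the mural groups overlapped once Mcam was left out. The part of these cells in the result was not tested. The 5 platelet and megakaryocyte markers summed to 1.74 to 2.84 FPKM with Trap and 5.58 to 5.96 FPKM in control, with 5 of 5 estimates below 0. The 10 mural markers summed to 186 to 224 FPKM with Trap and 235.5 to 235.8 FPKM in control, with 8 of 10 below 0, and without Mcam the sums were 67.1 to 120 FPKM with Trap and 115 to 117 FPKM in control. Groups that do not overlap, in either direction, occurred for 14.8% of all tested genes in endothelium, and nothing is read from the separation of Angpt1. In the 3 Trap libraries with a value above 0 for Angpt1, the log2 ratio of Angpt2 to Angpt1 was 8.62, 9.59 and 9.34, and in the 2 controls it was 7.72 and 7.05. Since Angpt1 was under 1 FPKM in all 6 libraries, this ratio is given with no test.

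The groups of the endothelial receptors overlapped. Tek was 94.98, 111, 86.4 and 85.5 FPKM with Trap and 90.7 and 85.9 FPKM in control (0.09 ± 0.22, adjusted p = 0.964). Tie1 was 55.4, 81.4, 59.9 and 67.3 FPKM with Trap and 62.9 and 69.0 FPKM in control (-0.01 ± 0.20, 95% interval -0.41 to 0.39). Ptprb was 253, 274, 264 and 206 FPKM with Trap and 237 and 257 FPKM in control (0.01 ± 0.22, 95% interval -0.45 to 0.46). For each of these genes Trap libraries lay on both sides of the controls. The log2 ratio of Tie1 to Tek was -0.78 to -0.35 with Trap and -0.53 to -0.32 in control (two-sided exact permutation p = 0.533, where 4 against 2 libraries can give no less than 0.0667, and 0.88 adjusted over the 6 ratio comparisons of Trap and control). The sum of endothelial markers was lower in all 4 Trap libraries than in both controls, as given above, with 7 of 10 estimates below 0 and 0 called. Fibroblast markers were at 9.55 to 14.5 FPKM with Trap and 1.77 to 5.13 FPKM in control endothelium, with 8 of 8 estimates above 0 and 1 called (Pi16, 1.22 ± 0.31, adjusted p = 0.0439). Their part in these values was not tested.

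In CD146 mesenchyme the groups of Tek and Ptprb did not overlap, as was so for 12.6% of all tested genes in either direction. Tek in CD146 mesenchyme was 1.48, 1.42, 1.17 and 0.94 FPKM with Trap and 2.82 and 2.12 FPKM in control. All 4 Trap libraries were below both controls and the mean was 0.507 times that of control, with a fitted difference of -0.62 ± 0.22 (SE, 95% interval -1.07 to -0.18, adjusted p = 0.791 by limma). Over 15 alternatives it was -0.93 to -0.48, with an adjusted p of 0.609 to 1 by limma. Ptprb was 1.13, 0.64, 1.89 and 1.03 FPKM with Trap and 0.39 and 0.48 FPKM in control. All 4 Trap libraries were above both controls (0.57 ± 0.22, 95% interval 0.11 to 1.03, adjusted p = 0.911 by limma), and over 15 alternatives the difference was 0.42 to 1.17, the highest with a pseudocount of 0.1, with an adjusted p of 0.633 to 1 by limma. Tie1 was 0.03, 0.27, 0.23 and 0.06 FPKM with Trap and 0.01 and 0.02 FPKM in control. These groups also lay apart, but the gene passed the filter through endothelium, and nothing is read from values this low.

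The Trap and control groups of Tek and Ptprb lay apart in opposite directions, at levels of 0.39 to 2.82 FPKM. Neither gene passed the test, groups lay apart for 12.6% of all tested genes, and nothing is read from these separations in CD146 mesenchyme. The endothelial marker sum there was 31.8, 33.0, 29.1 and 31.6 FPKM with Trap and 29.2 and 39.4 FPKM in control, so the Trap libraries were not all on one side of the controls. Esam alone was 14.94 to 24.96 FPKM in these libraries, so the sum largely follows that gene. Its level was 35.7% of that in endothelium, beside a median of 0.824% for the 10 markers. The part of endothelial cells in the Tek and Ptprb values was not tested. Platelet and megakaryocyte markers were lower with Trap, at 0.95 to 3.37 FPKM, than in control, at 6.09 to 8.23 FPKM, with Ppbp at 0 in both controls, and their part in these values was not tested. Compared with the average change over the remaining 4 populations, the Tek change in CD146 mesenchyme was -0.72 ± 0.24 (adjusted p = 0.999 by limma) and the Ptprb change 0.53 ± 0.25 (adjusted p = 0.999 by limma). None of the 25 such differences (5 genes in 5 populations) passed the threshold, which 0.28% of all genes passed for endothelium, 0.00609% for CD146 mesenchyme, 0% for CD140a mesenchyme, 0.00609% for cTEC and 0.201% for mTEC.

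**Figure D4:**
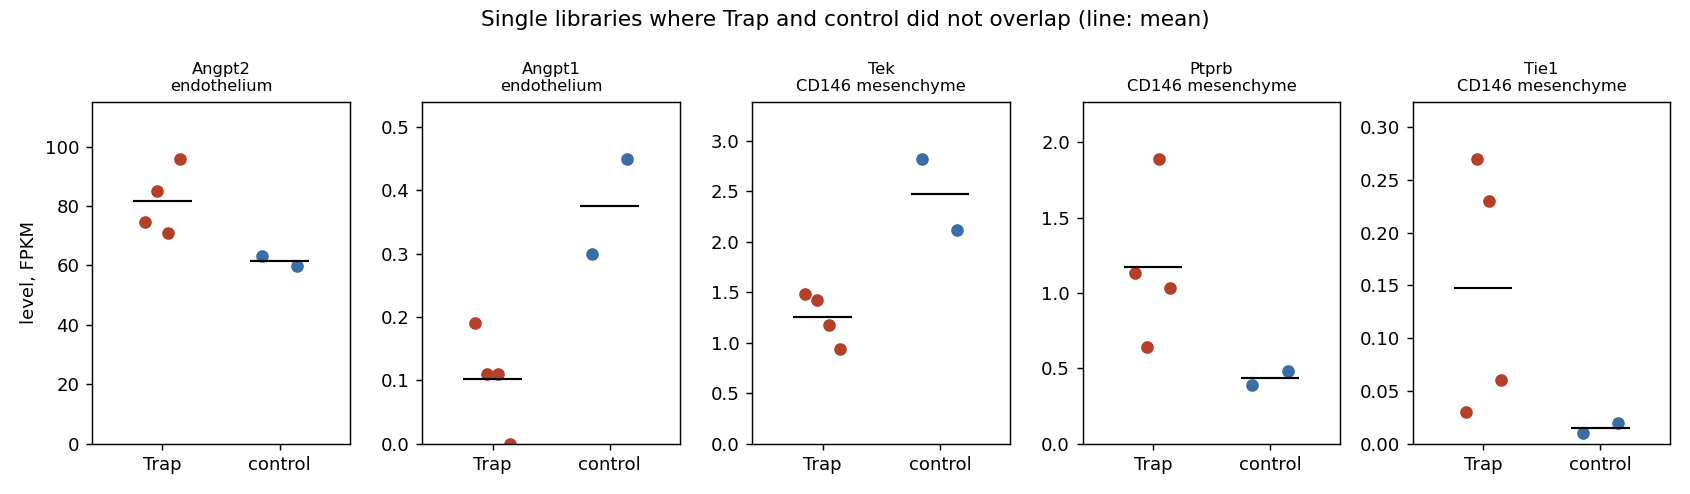
Level in FPKM of single libraries for the 5 gene and population pairs whose Trap (red, left) and control (blue, right) libraries did not overlap, with a line at the mean and each axis starting at 0. Angpt2 in endothelium lies at 71.1 to 95.9 FPKM with Trap and 59.7 to 63.1 FPKM in control, while the other 4 panels show levels of at most 2.82 FPKM.

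In CD140a mesenchyme, cTEC and mTEC the groups of all 5 genes overlapped, while groups lay apart for 11.9%, 13.5% and 13.5% of all genes. Tek in CD140a mesenchyme differed by -0.18 ± 0.22 (95% interval -0.62 to 0.26) between Trap and control. In mTEC Tek had the largest of these estimates, 0.43 ± 0.22 (adjusted p = 0.694), and 3 of 4 Trap libraries lay above both controls. Angpt1 in CD140a mesenchyme was 1.76, 0.90, 1.80 and 2.31 FPKM with Trap and 1.01 and 1.05 FPKM in control (0.38 ± 0.25, adjusted p = 1). In cTEC it averaged 5.83 ± 0.325 FPKM with Trap (SD, n = 4) and 4.78 ± 1.15 FPKM in control (SD, n = 2), with a difference of 0.25 ± 0.25 (SE, adjusted p = 1 by limma). The thymocyte markers of these libraries were higher in all 4 Trap libraries than in both controls, as given above, with 7 of 7 estimates above 0 and 0 called, and their part in the Angpt1 level was not tested. Angpt2 in mTEC was 8.45, 5.22, 3.44 and 6.34 FPKM with Trap and 3.61 and 5.12 FPKM in control, and 3 of the 4 Trap libraries were above both controls.

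Genes around the receptors were read from 4 lists, and none of their members passed the Trap test in endothelium or CD146 mesenchyme, nor in the other 3 populations. Among the 21 partners 17 of the endothelial estimates were above 0, with a median of 0.11 beside -0.02 over all genes. The smallest p-values there were those of Itgav, an integrin subunit (0.52 ± 0.15, adjusted p = 0.0833), and Grb2, an adaptor of receptor tyrosine kinases (0.78 ± 0.25, adjusted p = 0.11). In CD146 mesenchyme 8 of 21 were above 0 (median -0.01 beside 0 over all genes), and the adaptor Grb14 (-0.47 ± 0.30, adjusted p = 1) was among those with the smallest p-values.

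Of 12 genes known as FOXO1 targets, 8 estimates were below 0 in endothelium (median -0.10 beside -0.02 over all genes) and 8 were above 0 in CD146 mesenchyme (median 0.09 beside 0). Sesn1 (-0.49 ± 0.24, adjusted p = 0.35) and Sesn3 (-0.28 ± 0.14, adjusted p = 0.375), stress-response sestrins, had the smallest p-values in endothelium. In CD146 mesenchyme these were Insr, the insulin receptor (0.29 ± 0.15, adjusted p = 0.998), and Gadd45a (-0.61 ± 0.33, adjusted p = 1). Of 11 genes of the hypoxia response, 3 were above 0 in endothelium (median -0.04) and 9 in CD146 mesenchyme (median 0.06). Ndrg1 (0.56 ± 0.25, adjusted p = 0.284) and Adm, the gene of adrenomedullin (-0.81 ± 0.39, adjusted p = 0.321), led in endothelium, and Adm (0.70 ± 0.39) and Ankrd37 (0.38 ± 0.46) in CD146 mesenchyme, both with an adjusted p of 1. Of the 6 angiopoietin-like genes, 5 were above 0 in endothelium (median 0.34) and 4 in CD146 mesenchyme (median 0.25). Angptl4 (0.37 ± 0.24, adjusted p = 0.53) had the smallest p-value in endothelium, and Angptl7 (0.71 ± 0.53, adjusted p = 1) in CD146 mesenchyme.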

How the data were processed

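Libraries were made with a miRNeasy micro kit, the Ovation V2 amplification system and KAPA LTP reagents, per the labels' protocols, and read in pairs. The submitters' processing notes name bcl2fastq 2.17, STAR, DESeq2 and the builds GRCm38 and mm10. The role of each tool, the annotation and the strand setting are not stated. The authors deposited FPKM values of 18847 protein-coding genes, rounded to 2 decimals and without counts. FPKM sums were 184608 to 241993 per library, and 10298 to 13661 genes reached 1 FPKM. After amplification and at an unknown depth, values near 0 are uncertain.

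From these, log2(FPKM + 1) of 16425 genes (at least 1 FPKM in at least 2 libraries) was fitted in R 4.3.3 with limma 3.58.1 as 10 group means with a trended variance prior. Contrasts were Trap minus control per population, each such change minus the average of the other 4, and pairs of populations with both treatments weighted equally. Ratios of levels within a library were compared by exact permutation over libraries (Python 3.11.15) and are given with no test where 1 of the genes was under 1 FPKM. Identifiers were matched to GENCODE M21 (18836, version suffixes ignored).

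The 5 genes and all lists were chosen with earlier results of these data known. Named beside the 5 were the 4 partners highest in endothelium, the ligands Angpt4 and Svep1, the 2 list members of smallest p in endothelium and CD146 mesenchyme where none passed, and the 5 genes of highest Pearson's r with each gene. Some genes that this rule names are not reported here. Of the family and of the most alike genes, examples with levels were picked after their values were seen. Alternatives were a pseudocount of 0.1, no filter, 3 other scalings, fits on the compared libraries alone, 1 weight per population, control libraries alone for pairs of populations, replicate blocks and leaving out each library.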

Additional observations from a re-analysis of the deposited data

Results flagged for a closer look

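Among the 25 groups of 4 Trap libraries (5 genes in 5 populations), 2 held a library far from the other 3 by Dixon's gap, for which chance gives about 1 in 20 groups. Angpt1 in CD146 mesenchyme was 8.86 FPKM in Trap replicate 2, with the other 3 Trap libraries at 12.1 to 12.2 FPKM and the controls at 9.03 and 12.6 FPKM. Its gap was 0.976 of the group's range. Angpt1 in mTEC was 2.16 FPKM in Trap replicate 3, with the other 3 at 1.00 to 1.11 FPKM and the controls at 1.23 and 2.76 FPKM, a gap of 0.905 of the range. None of the 25 tests of a difference between populations in the Trap change passed the adjusted threshold.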

How the results depend on the processing

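No alternative brought any of the reported Trap changes of the 5 genes past the threshold. Counts of genes called with Trap moved more. In endothelium (286 called) there were 176 under quantile normalization, 13 with 1 weight per population, 0 in a fit on its 6 libraries alone, and 97 to 476 when 1 library was left out, the extremes being without control replicate 1 and without control replicate 2. In CD146 mesenchyme (3) there were 13 with no filter, 5 after rescaling to TPM, 6 with 1 weight, 0 on its own libraries and 2 to 19 with 1 library left out (19 without control replicate 1). In CD140a mesenchyme (0) there were 4 with no filter, 1 with 1 weight and 0 to 9 with 1 left out (9 without control replicate 2). In cTEC (1) there were 2 with a pseudocount of 0.1, 2 after rescaling to TPM, 8 with 1 weight, 0 on its own libraries and 1 to 6 with 1 left out (6 without control replicate 2). In mTEC (57) there were 9 with a pseudocount of 0.1, 205 with no filter, 14 after rescaling to TPM, 0 on its own libraries and 45 to 164 with 1 left out (164 without control replicate 2). For the difference between CD146 mesenchyme and the other populations in the Trap change (1) there were 2 with no filter, 0 after rescaling to TPM and 1 to 12 with 1 left out (12 without CD146 control replicate 1). In control libraries alone the pairs of populations called 4175 (CD146 mesenchyme and cTEC), 4020 (cTEC and mTEC), 4421 (endothelium and CD140a mesenchyme), 3556 (endothelium and CD146 mesenchyme), 4619 (CD140a mesenchyme and cTEC) and 2664 genes (CD146 and CD140a mesenchyme).

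Signs turned for differences that had not passed the test, with 1 exception, Tek in CD146 mesenchyme against mTEC (-0.50, and 0.02 in control libraries alone). Tie1 with Trap in endothelium (-0.01) became 0.052 under upper quartile scaling, 0.021 under quantile normalization and 0.037 after rescaling to TPM, and Ptprb with Trap in mTEC (0.00) became 0.015, 0.108 and 0.006. Angpt1 in CD140a mesenchyme against mTEC (-0.15) became 0.007 under upper quartile scaling and 0.403 under quantile normalization, and Ptprb in CD146 mesenchyme against mTEC (-0.30) became 0.266 under quantile normalization. With 1 library left out, the Trap change ran over -0.116 to 0.066 for Tie1 and -0.052 to 0.096 for Ptprb in endothelium, -0.154 to 0.284 for Angpt1 and -0.166 to 0.475 for Angpt2 in CD146 mesenchyme, -0.414 to 0.052 for Tek in CD140a mesenchyme, -0.265 to 0.00 for Angpt2 in cTEC, and -0.714 to 0.04 for Angpt1 and -0.129 to 0.125 for Ptprb in mTEC, and Angpt1 in CD140a mesenchyme against mTEC over -0.343 to 0.034. The causes were not tested.

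The replicate numbers did not pair the libraries: deviations of same-numbered libraries of different populations correlated at -0.05 to 0.102 (median 0.025 over 60 pairs). With the replicate number as a fixed block, Ptprb in endothelium became -0.008, Angpt1 in CD146 mesenchyme -0.012, and the CD146 difference called 2 genes. No other result changed its call under a block, and with treatment and number as a random block none did. The 2 controls per population and the unknown depth limit all Trap comparisons.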
